A study of Mus musculus with 12 samples.

Results

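Expression of the Bcl2 family and of the apoptosis inhibitors Cflar, Birc2 and Birc3 was followed in mouse bone marrow-derived macrophages. The set holds 10 listed genes: Bcl2, Bcl2l1, Mcl1, Bax, Bak1, Bid, Bcl2l11, Cflar, Birc2 and Birc3. Members were the probe sets whose only gene symbol is one of these names, and each gene was read from whichever of its probe sets was brightest on average across the 12 arrays. By this rule 9 of the 10 genes were measured, among 12393 genes in all, and Bax was not analysed here. The 9 genes had 27 probe sets, 18 of them besides the main ones.

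Cells came from p50-/-IL10-/- mice (written p50-/-IL-10-/- in the genotype label) and from IL10-/- mice, both of the strain 129-SvEv-Tac. Both genotypes therefore lack interleukin 10 (IL-10), which dampens inflammatory gene expression in macrophages, and the series has no group with an intact Il10 gene. p50-/-IL10-/- cells also lack p50 and its precursor p105, NF-kB proteins encoded by Nfkb1, whose transcript was not analysed here, so the genotypes rest on the labels. Marrow was cultured for 5 days with 10% serum and 30% L-cell medium, which supplies the growth factor macrophages need. Cells of each genotype then received 1 ng/ml lipopolysaccharide (LPS, from the bacterial cell wall) with 0.3 ng/ml IL-10, 1 ng/ml LPS alone, or nothing, and RNA was taken 4 h later. Each of the 6 groups held 2 arrays. The labels call these biological replicates without saying whether they came from separate mice, so the p-values speak only for the spread among these cultures, which may be technical.

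Cell death by the mitochondrial route is set by the balance within the Bcl2 family. Bcl2, Bcl2l1 (which codes for Bcl-xL) and Mcl1 protect the outer mitochondrial membrane, Bax and Bak1 form pores in it, and the BH3-only proteins Bid and Bcl2l11 (Bim) bind the protectors or activate the pore formers. Cflar (c-FLIP) blocks caspase-8 at death receptors, and Birc2 and Birc3 (cIAP1 and cIAP2) are ubiquitin ligases of the tumour necrosis factor receptor complex. Several of these genes are known targets of NF-kB, and macrophages meeting LPS are known to induce survival genes.

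The promoters of the 3 genes with the widest range over the 6 groups, Cflar, Birc2 and Birc3, and of Bcl2l1 are shown because these genes differed most between groups. Windows run from 250 bases before to 50 bases after the start site and come from RefSeq (GRCm38.p6, the C57BL/6J reference, not the strain studied). All 9 measured genes had at least 1 window, 13 windows in all, searched on both strands for the kB consensus of NF-kB sites. It matched 1 of these 13 windows, a Bcl2l1 one, against 8.459% of 32851 windows of the same length across the genome. Capitals mark that match, which starts at -242 from the start site. Bcl2l1 had 3 windows, of which only the matching one is shown, and Birc2 had 2, of which 1 is shown.
Cflar promoter, chr1:58711241-58711540, plus strand: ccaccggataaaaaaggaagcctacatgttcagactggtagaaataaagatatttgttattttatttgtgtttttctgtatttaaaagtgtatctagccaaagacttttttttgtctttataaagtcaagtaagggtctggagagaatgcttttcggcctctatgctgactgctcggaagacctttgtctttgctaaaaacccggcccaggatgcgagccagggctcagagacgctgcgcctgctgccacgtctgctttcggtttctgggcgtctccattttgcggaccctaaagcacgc
Birc2 promoter, chr9:7837008-7837307, minus strand: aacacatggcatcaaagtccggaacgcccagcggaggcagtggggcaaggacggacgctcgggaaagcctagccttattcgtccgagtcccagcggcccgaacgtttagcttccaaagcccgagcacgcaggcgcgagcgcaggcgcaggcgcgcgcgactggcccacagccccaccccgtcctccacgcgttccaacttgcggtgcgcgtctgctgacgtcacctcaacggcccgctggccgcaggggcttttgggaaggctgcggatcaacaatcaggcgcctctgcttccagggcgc
Birc3 promoter, chr9:7873121-7873420, minus strand: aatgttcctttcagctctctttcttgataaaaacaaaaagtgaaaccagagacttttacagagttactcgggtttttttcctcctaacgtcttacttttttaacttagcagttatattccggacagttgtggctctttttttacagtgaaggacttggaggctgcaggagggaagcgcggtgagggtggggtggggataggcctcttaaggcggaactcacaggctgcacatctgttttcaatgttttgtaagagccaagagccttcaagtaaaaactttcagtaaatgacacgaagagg
Bcl2l1 promoter, chr2:152830668-152830967, minus strand: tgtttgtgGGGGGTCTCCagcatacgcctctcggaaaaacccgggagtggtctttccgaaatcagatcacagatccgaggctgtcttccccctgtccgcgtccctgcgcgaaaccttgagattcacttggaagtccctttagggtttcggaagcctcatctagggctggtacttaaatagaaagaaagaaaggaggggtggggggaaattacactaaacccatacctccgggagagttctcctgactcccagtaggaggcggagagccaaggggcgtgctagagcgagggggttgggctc
A match is a description of these letters and not a bound site, and its absence from a window says nothing about the factor. The kB consensus allows no mismatch, and sites outside the windows were not searched. Birc2 and Birc3 are neighbours on chromosome 9, with 0 annotated genes between them.

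The deposited values are log2 expression levels, in which a difference of 1 is a 2-fold change. Array medians were 6.92 to 6.96 over all probe sets, as the normalisation makes them, which hides any shift in total RNA. Over the 12393 genes, each read from its brightest probe set, they were 7.20 to 7.34, and the lower quartile of genes lay at 5.80 to 5.94, below which values are called dim here. The 2 arrays of a group correlated at 0.992 to 0.997 across genes, which are not independent replicates. The 8 macrophage markers, all above the dim range, had a list mean of 11.76 to 12.16. The growth factor receptor Csf1r (13.43 to 13.65) and the lysozyme Lyz2 (13.98 to 14.11) were bright on every array, whereas Mertk (7.30 to 10.49) and Itgam (8.96 to 10.79) varied widely between arrays. Because RNA came from whole cultures, fewer cells of a type and less RNA per cell cannot be told apart. Differences are given with their standard error (SE), with n = 2 arrays per group, and a gene was called at a limma adjusted p under 0.05 over all 12393 genes. With 2 arrays on each side, exact permutation cannot reach a p under 0.333, so the test borrows spread from all genes. Groups of 2 arrays often did not overlap, in 39.8% to 75.6% of all genes over the pairwise comparisons.

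**Figure D1:**
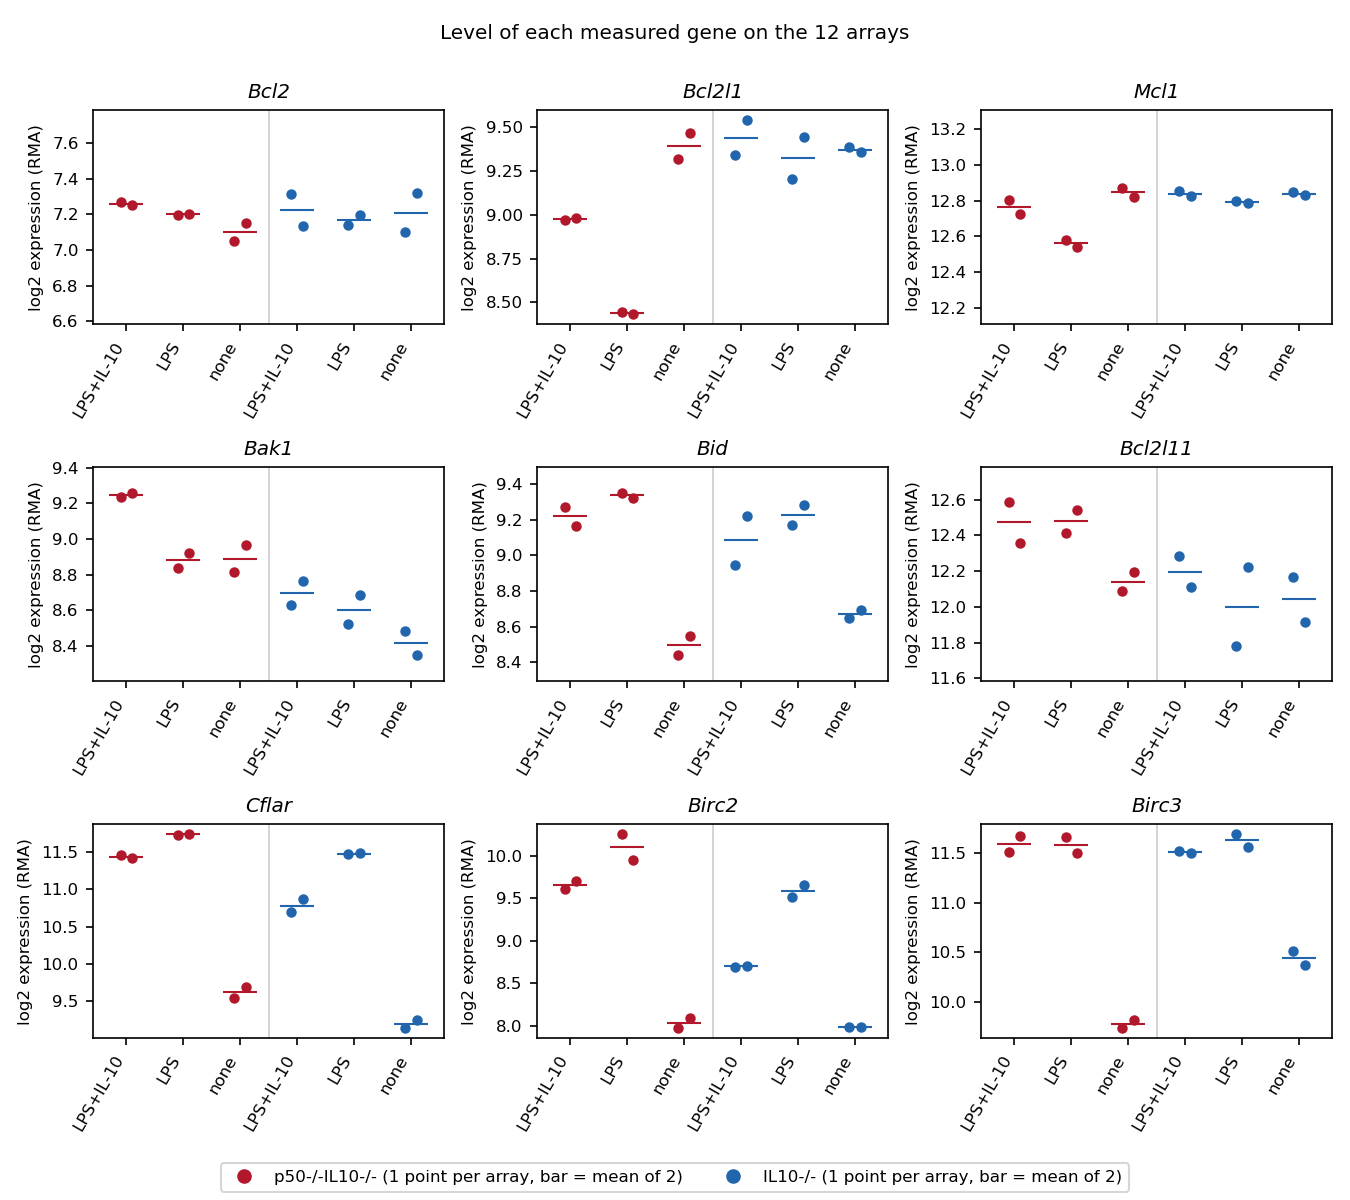
Log2 expression (RMA) of the 9 measured genes on each array, with p50-/-IL10-/- cells in red and IL10-/- cells in blue, 1 point per array and a bar at the mean of 2; each panel has its own scale. Cflar, Birc2 and Birc3 spanned 2.55, 2.12 and 1.86 log2 between the highest and lowest group mean, whereas Bcl2 spanned 0.16.

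LPS alone was compared with no stimulus to show which of these genes respond. Cflar, Birc2, Birc3 and Bid rose in both genotypes, whereas Bcl2l1 and the main Mcl1 probe set fell in p50-/-IL10-/- cells and were not called in IL10-/- cells. In p50-/-IL10-/- cells 6 of 9 members were called, 4 higher and 2 lower, against 32.4% of all genes called, 10.3% higher and 22.1% lower. In IL10-/- cells 4 of 9 were called, all higher, against 24.8% of genes, 7.76% higher and 17.1% lower. The median difference over the 9 genes was 0.34 log2 in p50-/-IL10-/- cells and 0.19 in IL10-/- cells, against -0.01 for all genes in each. Centring each array on its median over these genes would add 0.13 log2 to every LPS difference in p50-/-IL10-/- cells and 0.09 in IL10-/- cells. On that scale Mcl1 in p50-/-IL10-/- cells lost its call and Bcl2l11 gained one (0.47, adjusted p 0.029), and Bak1 gained one in IL10-/- cells (0.28, adjusted p 0.0457).

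Cflar (gene ID 12633) rose more than 2 log2 in both genotypes. It read 11.73 and 11.75 log2 in LPS-treated p50-/-IL10-/- cells, against 9.55 and 9.69 in unstimulated ones. IL10-/- cells gave 11.47 and 11.49 with LPS, against 9.14 and 9.25 without. Every LPS array lay above every unstimulated array, without overlap. The increase was 4.35-fold in p50-/-IL10-/- cells (2.12 ± 0.09 log2, adjusted p 8.46e-08) and 4.89-fold in IL10-/- cells (2.29 ± 0.09, adjusted p 7.25e-08).

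Birc2 (gene ID 11797) read 10.26 and 9.96 log2 with LPS, against 7.97 and 8.09 without, in p50-/-IL10-/- cells. The IL10-/- values were 9.52 and 9.66 with LPS, against 7.98 and 7.98 without. LPS arrays were again the higher ones throughout, and the unstimulated arrays of both genotypes lay close together. The response was 4.22-fold in p50-/-IL10-/- cells (2.08 ± 0.10, adjusted p 3.2e-07) and 3.05-fold in IL10-/- cells (1.61 ± 0.10, adjusted p 2.5e-06).

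Its neighbour Birc3 (gene ID 11796) read 11.66 and 11.50 log2 with LPS, against 9.73 and 9.81 without, in p50-/-IL10-/- cells. The IL10-/- arrays read 11.70 and 11.57 with LPS, against 10.51 and 10.37 without. The LPS arrays of both genotypes overlapped each other, while the unstimulated p50-/-IL10-/- arrays lay below the unstimulated IL10-/- arrays. Birc3 rose 3.51-fold in p50-/-IL10-/- cells (1.81 ± 0.09, adjusted p 3.66e-07) and 2.28-fold in IL10-/- cells (1.19 ± 0.09, adjusted p 8.4e-06). The LPS calls of Cflar, Birc2 and Birc3 held in both genotypes under all alternatives run.

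Among the BH3-only genes, Bid (gene ID 12122), whose cleavage links death receptors to mitochondria, also rose. It read 9.35 and 9.32 log2 with LPS, against 8.44 and 8.55 without, in p50-/-IL10-/- cells. Its IL10-/- levels were 9.17 and 9.28 with LPS, against 8.65 and 8.69 without. The groups did not overlap in either genotype, and the increase was 1.79-fold in p50-/-IL10-/- cells (0.84 ± 0.10, adjusted p 8.36e-05) and 1.47-fold in IL10-/- cells (0.55 ± 0.10, adjusted p 0.00201).

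Bcl2l11 (gene ID 12125) was not called on its main probe set. This read 12.42 and 12.54 log2 with LPS, against 12.09 and 12.19 without, in p50-/-IL10-/- cells (0.34 ± 0.15, adjusted p 0.112). For IL10-/- cells the levels were 11.78 and 12.22 with LPS, against 12.17 and 11.92 without. The IL10-/- groups overlapped, and their difference was -0.04 ± 0.15 (95% interval -0.37 to 0.29). Other probe sets of this gene were called, as described below.

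Bcl2l1 (gene ID 12048), the gene of the protector Bcl-xL, read 8.44 and 8.43 log2 with LPS, against 9.32 and 9.47 without, in p50-/-IL10-/- cells. The IL10-/- values were 9.21 and 9.45 with LPS, against 9.38 and 9.36 without. The LPS arrays of p50-/-IL10-/- cells were the lowest of all 12, while the IL10-/- groups overlapped. Bcl2l1 fell 1.94-fold in p50-/-IL10-/- cells (-0.95 ± 0.10, adjusted p 3.81e-05) and differed by -0.04 ± 0.10 in IL10-/- cells (95% interval -0.27 to 0.18, adjusted p 0.808). As the mean of all its probe sets the fall was smaller (-0.52, adjusted p 0.000452).

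Mcl1 (gene ID 17210), a short-lived protector, was bright on every array. Its main probe set read 12.58 and 12.54 log2 with LPS, against 12.87 and 12.82 without, in p50-/-IL10-/- cells. IL10-/- cells gave 12.80 and 12.79 with LPS, against 12.85 and 12.83 without. The LPS arrays were lower in both genotypes, with a difference of -0.29 ± 0.07 in p50-/-IL10-/- cells (adjusted p 0.0084) and of -0.05 ± 0.07 in IL10-/- cells (adjusted p 0.705). The call ended without array 1 of unstimulated p50-/-IL10-/- cells (adjusted p 0.0567), on the scale of centred arrays (-0.16, adjusted p 0.0982) and as the mean of all probe sets (-0.13, adjusted p 0.129). Without probe sets of suffix x or s, 1448503_at became the brightest set, and the sign turned (0.04, adjusted p 0.772). The direction differed between Mcl1 probe sets, as described below.

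Bcl2 (gene ID 12043) and the pore former Bak1 (gene ID 12018) were not called for LPS. Bcl2 read 7.20 and 7.20 log2 with LPS, against 7.05 and 7.15 without, in p50-/-IL10-/- cells, and 7.14 and 7.19 with LPS, against 7.10 and 7.32 without, in IL10-/- cells. It was not called in any of the 12 contrasts, and the 95% intervals of its differences between stimuli lay within -0.25 and 0.36. Bak1 read 8.84 and 8.92 with LPS, against 8.81 and 8.97 without, in p50-/-IL10-/- cells (-0.01 ± 0.09, 95% interval -0.22 to 0.20), with overlap. The IL10-/- arrays read 8.52 and 8.68 with LPS, against 8.49 and 8.35 without (0.19 ± 0.09, adjusted p 0.188), without overlap.

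**Figure D2:**
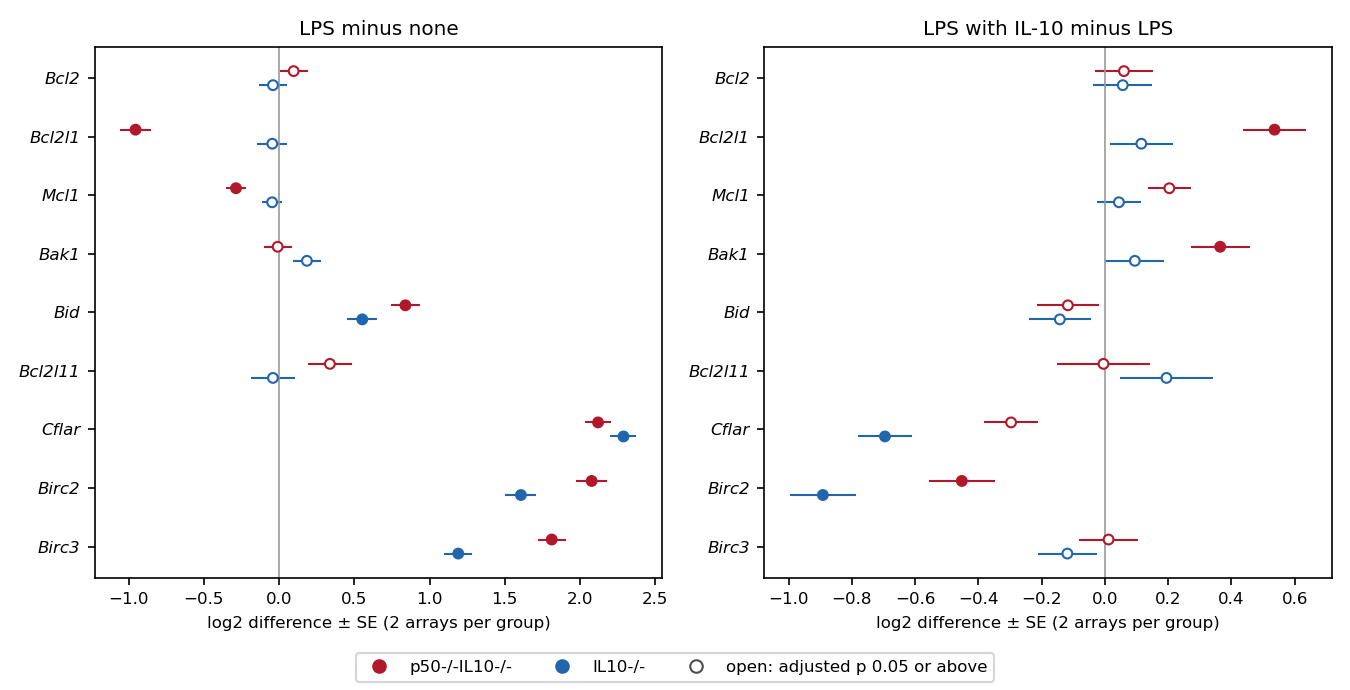
Log2 differences ± SE of the 9 genes for LPS minus none (left) and LPS with IL-10 minus LPS (right), with p50-/-IL10-/- cells in red above IL10-/- cells in blue; open circles have an adjusted p of 0.05 or above. Cflar, Birc2, Birc3 and Bid lie right of 0 in both genotypes on the left, and Bcl2l1 lies far left of 0 in p50-/-IL10-/- cells, at -0.95.

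A direct test asked whether the LPS response differed between genotypes. It called 1 of 9 members, Bcl2l1, against 1.19% of all genes (0.734% higher in p50-/-IL10-/- cells and 0.452% lower). The Bcl2l1 response was the lower one in p50-/-IL10-/- cells, by a difference of -0.91 ± 0.14 log2 (95% interval -1.22 to -0.60, adjusted p 0.0153). The call was lost in 4 of the 12 leave-one-out fits: without array 1 of the p50-/-IL10-/- LPS group (adjusted p 0.0634), array 1 or 2 of unstimulated p50-/-IL10-/- cells (0.0514 and 0.081), or array 2 of unstimulated IL10-/- cells (0.0681). Its value lay between -0.98 and -0.84 in those 4 fits. The Birc3 response was larger by 0.62 ± 0.13 in p50-/-IL10-/- cells and missed the threshold (adjusted p 0.0591). It passed on the scale of centred arrays (0.66, adjusted p 0.0497) and with a trended, robust variance prior in limma (adjusted p 0.0439). Without array 1 of LPS-treated IL10-/- cells the Birc3 difference was 0.69. The further Birc3 probe set differed by only 0.22, and neither set was called when all probe sets were fitted. The Birc2 difference was 0.47 ± 0.15 (adjusted p 0.234), and that of Cflar -0.17 ± 0.12 (adjusted p 0.781).

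IL-10 given together with LPS was compared with LPS alone, to show how the cytokine alters these levels. Birc2 was lower with IL-10 in both genotypes, Cflar was called lower in IL10-/- cells, and Bcl2l1 and Bak1 were called higher in p50-/-IL10-/- cells. In p50-/-IL10-/- cells 3 of 9 members were called, 2 higher and 1 lower, against 6.57% of genes, 3.70% higher and 2.87% lower. In IL10-/- cells 2 of 9 were called, both lower, against 6.17% of genes, 3.35% higher and 2.82% lower.

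Birc2 read 9.61 and 9.70 log2 with LPS and IL-10, against 10.26 and 9.96 with LPS, in p50-/-IL10-/- cells (-0.45 ± 0.10, adjusted p 0.0303). Its IL10-/- levels were 8.69 and 8.71 with both, against 9.52 and 9.66 with LPS, which is 1.86-fold lower (-0.89 ± 0.10, adjusted p 0.000561). The groups did not overlap in either genotype. The p50-/-IL10-/- call ended without array 1 of the LPS group (-0.30, adjusted p 0.192), without array 1 or 2 of the group given both (adjusted p 0.153 and 0.102), and with only the groups compared (0.0804).

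Cflar read 11.47 and 11.42 log2 with both, against 11.73 and 11.75 with LPS, in p50-/-IL10-/- cells. The IL10-/- values were 10.69 and 10.88 with both, against 11.47 and 11.49 with LPS. The groups did not overlap in either genotype, and Cflar was 1.62-fold lower in IL10-/- cells (-0.70 ± 0.09, adjusted p 0.000813). The p50-/-IL10-/- difference of -0.30 ± 0.09 missed the threshold (adjusted p 0.0686). It passed on the scale of centred arrays (-0.36, adjusted p 0.031) and as the mean of all Cflar probe sets (-0.39, adjusted p 0.0246).

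Bcl2l1 read 8.97 and 8.98 log2 with both, against 8.44 and 8.43 with LPS, in p50-/-IL10-/- cells, and was higher by 0.54 ± 0.10 (1.45-fold, adjusted p 0.0112). For IL10-/- cells the levels were 9.34 and 9.54 with both, against 9.21 and 9.45 with LPS, with overlap (0.12 ± 0.10, adjusted p 0.675). The levels with both in p50-/-IL10-/- cells thus lay between those with LPS and those without stimulus. The call was lost in 4 of the 12 leave-one-out fits, each without an array of the 2 groups compared (adjusted p 0.0555 to 0.0811, the highest without array 2 of the group given both).

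Bak1 read 9.23 and 9.26 log2 with both, against 8.84 and 8.92 with LPS, in p50-/-IL10-/- cells (0.36 ± 0.09, adjusted p 0.0448). IL10-/- cells gave 8.63 and 8.77 with both, against 8.52 and 8.68 with LPS, with overlap (0.09 ± 0.09, adjusted p 0.728). The p50-/-IL10-/- call was near the threshold and was lost in 10 of the 12 leave-one-out fits, at an adjusted p of 0.0542 to 0.219, the highest without array 1 of the LPS group. Of those 12, the fits without array 1 or array 2 of LPS-treated IL10-/- cells kept it. It was also lost with only the groups compared (0.0561), on the scale of centred arrays (0.0734) and as the mean of both probe sets (0.0501).

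The other 5 genes were not called for IL-10 in either genotype. Birc3 read 11.51 and 11.68 log2 with both, against 11.66 and 11.50 with LPS, in p50-/-IL10-/- cells, and 11.52 and 11.50 with both, against 11.70 and 11.57 with LPS, in IL10-/- cells. Its differences of 0.01 ± 0.09 and -0.12 ± 0.09 had 95% intervals of -0.20 to 0.22 in p50-/-IL10-/- cells and -0.33 to 0.09 in IL10-/- cells. Bid read 9.27 and 9.16 with both in p50-/-IL10-/- cells and 8.94 and 9.22 in IL10-/- cells (differences of -0.12 ± 0.10 and -0.14 ± 0.10). Mcl1 read 12.80 and 12.72 with both in p50-/-IL10-/- cells, where its difference of 0.20 ± 0.07 missed the threshold (adjusted p 0.11), and 12.85 and 12.82 in IL10-/- cells (0.04 ± 0.07).

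No member was called by limma in the direct test of whether the IL-10 effect differed between genotypes, against 0.137% of all genes, 0.0968% higher and 0.0403% lower. At an unadjusted p under 0.05 there were 3 of 9, against 1452 of 12393 genes. These were Bcl2l1 (0.42 ± 0.14, adjusted p 0.32), Cflar (0.40 ± 0.12, adjusted p 0.285) and Birc2 (0.44 ± 0.15, adjusted p 0.316), named after their values were seen, and in each the IL-10 difference was the more positive one in p50-/-IL10-/- cells.

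The combination of LPS and IL-10 was next compared with no stimulus, using arrays already compared above. In p50-/-IL10-/- cells 6 of 9 members were called, 5 higher and 1 lower, against 37.9% of genes, 16.7% higher and 21.2% lower. In IL10-/- cells 4 of 9 were called, all higher, against 19.5% of genes, 6.94% higher and 12.5% lower. Cflar stayed higher by 1.82 ± 0.09 log2 in p50-/-IL10-/- cells and 1.59 ± 0.09 in IL10-/- cells, Birc3 by 1.82 ± 0.09 in p50-/-IL10-/- and 1.07 ± 0.09 in IL10-/- cells, and Bid by 0.72 ± 0.10 in p50-/-IL10-/- and 0.41 ± 0.10 in IL10-/- cells. Birc2 stayed 3.08-fold higher in p50-/-IL10-/- cells (1.62 ± 0.10, adjusted p 1.58e-06) and 1.64-fold higher in IL10-/- cells (0.72 ± 0.10, adjusted p 0.000706). Bak1 was higher (0.36 ± 0.09, adjusted p 0.013) and Bcl2l1 lower (-0.42 ± 0.10, adjusted p 0.00843) in p50-/-IL10-/- cells. The main Bcl2l11 set was not called in p50-/-IL10-/- cells (0.33 ± 0.15, adjusted p 0.0974) or in IL10-/- cells (0.15 ± 0.15, adjusted p 0.565). The mean of all Bcl2l11 sets was called higher in p50-/-IL10-/- cells (0.84, adjusted p 0.000359) and in IL10-/- cells (0.70, adjusted p 0.00178). The Bid call in IL10-/- cells (adjusted p 0.0135) ended without array 2 of the group given both (0.109), without array 1 or 2 of the unstimulated group (0.0776 and 0.0584), and with only the groups compared (0.0559). The Bak1 call ended without array 2 of the group given both (0.0664) or array 1 of the unstimulated group (0.0973), and the Bcl2l1 call without array 2 of the unstimulated group (0.0702) and as the mean of all probe sets (-0.13, adjusted p 0.187).

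The genotypes were then compared at each stimulus, which asks how levels differ when p50 and p105 are missing. In p50-/-IL10-/- cells Bak1 and Cflar were called higher without stimulus and with LPS and IL-10, Birc2 higher and Bcl2l1 lower in both stimulated states, and Birc3 lower without stimulus. Unstimulated, 3 of 9 members were called, 2 higher and 1 lower, against 2.57% of genes, 1.26% higher and 1.31% lower. With LPS, 2 of 9 were called, 1 higher and 1 lower, against 12.4% of genes, 5.66% higher and 6.72% lower. With LPS and IL-10, 4 of 9 were called, 3 higher and 1 lower, against 18.0% of genes, 7.58% higher and 10.4% lower. In the average over the 3 stimuli 6 of 9 were called, 4 higher and 2 lower, against 25.7% of genes, 10.6% higher and 15.1% lower.

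The macrophage list mean overlapped between genotypes, but not every marker in it did. Adgre1 read 11.95 to 12.31 log2 in p50-/-IL10-/- cells and 12.32 to 12.78 in IL10-/- cells. Cd68 went the other way, at 13.05 to 13.33 in p50-/-IL10-/- cells and 12.79 to 13.04 in IL10-/- cells. The remaining macrophage markers overlapped. Some of the other marker lists moved with genotype. The mean of 7 measured neutrophil markers (of 9 listed) was 8.24 to 8.43 log2 in p50-/-IL10-/- cells and 8.89 to 9.12 in IL10-/- cells, with 0 of 7 dim on every array, and each of the 7 was lower without overlap. The brightest, S100a8, read 9.99 to 10.50 in p50-/-IL10-/- cells and 11.10 to 11.47 in IL10-/- cells. The 5 stromal markers averaged 5.98 to 6.31 in p50-/-IL10-/- cells and 6.40 to 6.90 in IL10-/- cells, with 1 of 5 (Col1a1) dim on every array. Of these Col1a2, Col3a1 and Sparc did not overlap between genotypes, while Col1a1 and Pdgfrb did. Within single states, 47.8% to 63.5% of all genes did not overlap between genotypes. The share of all genes without overlap over all arrays of both genotypes was not counted. The 5 measured dendritic cell markers (of 7) averaged 6.55 to 6.85 in p50-/-IL10-/- cells and 5.99 to 6.22 in IL10-/- cells, with 3 of 5 (Zbtb46, Ccr7 and Xcr1) dim on every array. That shift was carried by Itgax, which macrophages also express, at 10.31 to 10.96 in p50-/-IL10-/- cells and 7.49 to 8.40 in IL10-/- cells. The other 4 overlapped between genotypes, and their mean was 5.61 to 5.85 in p50-/-IL10-/- cells and 5.62 to 5.77 in IL10-/- cells. Over all arrays the B cell list averaged 6.67 to 7.01, the T and NK cell list 5.69 to 5.92, the erythroid list 5.80 to 6.15 and the mast cell and basophil list 5.82 to 6.06. In the B cell list Ighm was bright, at 9.98 to 11.62. The mean of the other 4 was 5.63 to 6.00 in p50-/-IL10-/- cells and 5.74 to 6.00 in IL10-/- cells. The part of the moving lists and markers in the genotype differences of the members was not tested.

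Bcl2l1 did not differ detectably without stimulus on its main probe set (0.02 ± 0.10, 95% interval -0.20 to 0.24). It was lower in p50-/-IL10-/- cells with LPS, 1.85-fold (-0.89 ± 0.10, adjusted p 0.000364), and with LPS and IL-10, 1.38-fold (-0.47 ± 0.10, adjusted p 0.0102). As the mean of all probe sets the difference with LPS was smaller (-0.38, adjusted p 0.00949). The call with LPS and IL-10 ended without array 1 or 2 of p50-/-IL10-/- cells given both (adjusted p 0.0577 and 0.0565), without array 2 of IL10-/- cells given both (0.0945) and as the mean of all probe sets (-0.17, adjusted p 0.146). Averaged over stimuli Bcl2l1 differed by -0.44 ± 0.06 (adjusted p 0.00033), and the mean of all its probe sets by -0.11 (adjusted p 0.108).

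Bak1 was higher in p50-/-IL10-/- cells by 0.47 ± 0.09 log2 unstimulated (adjusted p 0.0244), by 0.28 ± 0.09 with LPS (adjusted p 0.0826) and by 0.55 ± 0.09 with both (adjusted p 0.00316). Its p50-/-IL10-/- arrays lay above its IL10-/- arrays in all 3 states. Averaged over stimuli it was 1.35-fold higher (0.43 ± 0.05, adjusted p 0.000248). The unstimulated call ended without array 1 or 2 of p50-/-IL10-/- cells (adjusted p 0.0574 and 0.21), without array 2 of IL10-/- cells (0.217), with only the groups compared (0.0629) and as the mean of both probe sets (0.0842). With centred arrays the difference with LPS passed (0.31, adjusted p 0.0474).

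Cflar was higher in p50-/-IL10-/- cells by 0.43 ± 0.09 log2 unstimulated (adjusted p 0.0265), by 0.26 ± 0.09 with LPS (adjusted p 0.0809) and by 0.66 ± 0.09 with both (adjusted p 0.000746). Averaged over stimuli the difference was 1.36-fold (0.45 ± 0.05, adjusted p 0.000123). The unstimulated call ended without any 1 of the 4 unstimulated arrays (adjusted p 0.0618 to 0.227, the highest without array 2 of p50-/-IL10-/- cells), with only the groups compared (0.0699) and as the mean of all probe sets (0.32, adjusted p 0.0943). The difference with LPS passed on the scale of centred arrays (0.29, adjusted p 0.0468) and as the mean of all probe sets (0.37, adjusted p 0.0199).

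Birc2 did not differ detectably without stimulus (0.05 ± 0.10, 95% interval -0.18 to 0.28). It was higher in p50-/-IL10-/- cells by 0.52 ± 0.10 with LPS (adjusted p 0.00889) and by 0.96 ± 0.10 with both (1.94-fold, adjusted p 0.000241). The call with LPS ended without array 1 of the p50-/-IL10-/- LPS group (0.37, adjusted p 0.0745) and with only the groups compared (0.0908). Birc3 was lower in unstimulated p50-/-IL10-/- cells, 1.59-fold (-0.67 ± 0.09, adjusted p 0.00396), and its differences were -0.05 ± 0.09 with LPS and 0.08 ± 0.09 with both, neither called. Averaged over stimuli Birc2 was higher (0.51 ± 0.06, adjusted p 0.000177) and Birc3 lower (-0.21 ± 0.05, adjusted p 0.0153).

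Averaged over stimuli, the main Bcl2l11 probe set was 1.22-fold higher in p50-/-IL10-/- cells (0.28 ± 0.09, adjusted p 0.0323). This call was lost in 7 of the 12 leave-one-out fits (adjusted p 0.0527 to 0.0914, the highest without array 1 of p50-/-IL10-/- cells given both). As the mean of all 5 probe sets the difference was larger (0.66, adjusted p 8.08e-05). By state the main set differed by 0.10 ± 0.15 unstimulated, 0.48 ± 0.15 with LPS (adjusted p 0.0625) and 0.28 ± 0.15 with both, none called. The difference with LPS passed with centred arrays (0.51, adjusted p 0.0426). The mean of all sets was called with LPS (0.90, adjusted p 0.00088) and with both (0.61, adjusted p 0.00606). Of the 5 sets, which all measure this gene, 1 was called higher unstimulated, 4 with LPS and 3 with both. Over all genes 1.26% were called higher unstimulated, 5.66% with LPS and 7.58% with both. The shares of all probe sets called in single states were not counted. The main set read 12.59 and 12.36 with both in p50-/-IL10-/- cells, against 12.28 and 12.11 in IL10-/- cells. The main Bid and Mcl1 sets were not called for genotype in any state or in the average (0.02 ± 0.06 and -0.10 ± 0.04). Mcl1 with LPS was near the threshold (-0.23 ± 0.07, adjusted p 0.0515). It passed without dim genes (adjusted p 0.0427) and with a trended, robust variance prior in limma (adjusted p 0.0245). Of the 6 Mcl1 sets, 1 was called higher unstimulated, 2 lower with LPS and 1 higher with both. In the average 1 was higher and 1 lower, against 23.6% of all probe sets called.

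**Figure D3:**
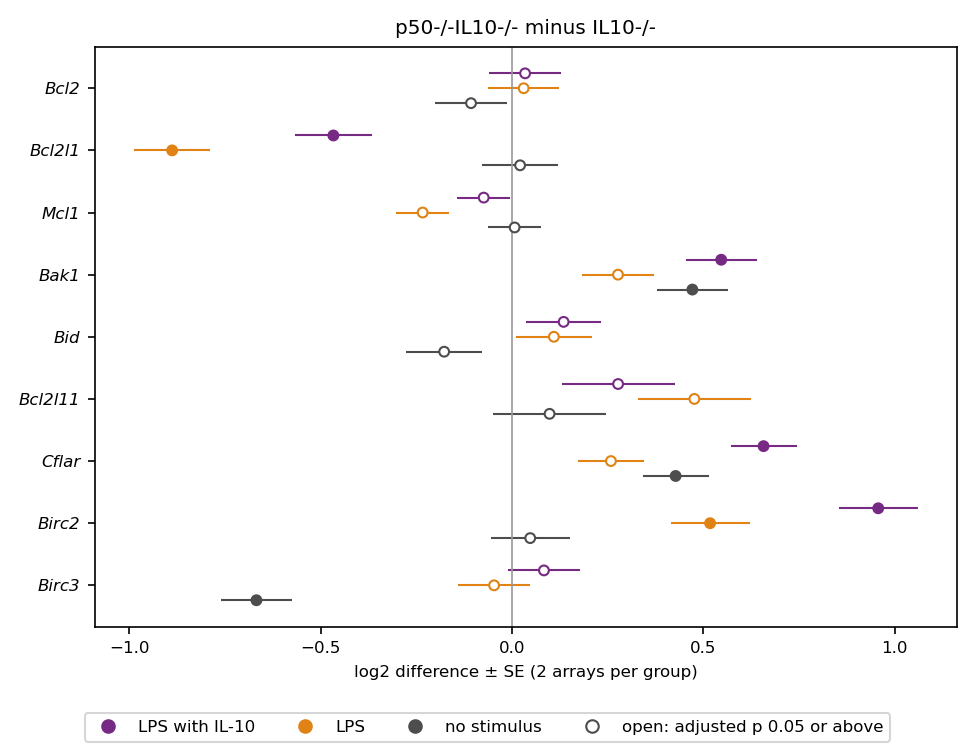
Log2 difference ± SE of the 9 genes, p50-/-IL10-/- minus IL10-/-, with LPS and IL-10 in purple, LPS in orange and no stimulus in grey; open circles have an adjusted p of 0.05 or above. Bcl2l1 lies left of 0 with LPS (-0.89) and with both (-0.47) and near 0 without stimulus, Bak1 lies right of 0 in all 3 states, and Birc3 lies left of 0 without stimulus (-0.67).

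The further probe sets of each gene were fitted with all 20380 probe sets that carry 1 gene symbol. Over these, 29.1% were called for LPS in p50-/-IL10-/- cells and 22.1% in IL10-/- cells, 5.29% for IL-10 in p50-/-IL10-/- cells and 5.12% in IL10-/- cells, 23.6% for the average genotype difference and 0.839% for the genotype difference of the LPS response. All 4 Cflar sets, both Bid sets and both Birc3 sets rose with LPS in both genotypes, the Cflar sets by 2.12 to 2.74 log2 in p50-/-IL10-/- cells and by 2.11 to 2.85 in IL10-/- cells. For IL-10, 2 of 4 Cflar sets were lower in p50-/-IL10-/- cells and 3 of 4 in IL10-/- cells. In the average genotype difference all 4 Cflar, both Bak1 and all 5 Bcl2l11 sets were higher and both Birc3 sets lower in p50-/-IL10-/- cells.

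The 5 Bcl2l11 sets differed in how far they moved. LPS raised 4 of 5 in p50-/-IL10-/- cells and 2 of 5 in IL10-/- cells, with the main, brightest set in neither count. The dimmest set (1426334_a_at) read 8.85 and 8.55 log2 with LPS, against 7.12 and 6.74 without, in p50-/-IL10-/- cells (1.77 ± 0.21, adjusted p 0.000139). The IL10-/- arrays read 7.36 and 6.93 with LPS, against 5.98 and 5.79 without (1.26 ± 0.21, adjusted p 0.00187), where the unstimulated values are near the dim range and the size is uncertain. Its p50-/-IL10-/- arrays lay above the IL10-/- arrays in each state, and its average genotype difference was 1.20 ± 0.12 (adjusted p 0.000108).

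The 6 Mcl1 sets disagreed in direction. In p50-/-IL10-/- cells LPS lowered 4, raised 1 and left 1 without a call, and in IL10-/- cells it raised 1 and left 5 without a call. The raised set in both was 1416881_at, at 11.69 and 11.70 log2 with LPS against 11.31 and 11.28 without in p50-/-IL10-/- cells (0.40 ± 0.09, adjusted p 0.00517). Its IL10-/- levels were 11.62 and 11.40 with LPS, against 10.89 and 10.90 without (0.61 ± 0.09, adjusted p 0.000586). The most lowered set in p50-/-IL10-/- cells was 1456381_x_at (-0.41 ± 0.09, adjusted p 0.0047), whose suffix, like that of the main set 1437527_x_at, marks probes that may bind other transcripts. The lowered sets also included 1416880_at, which lacks that suffix, at 11.93 and 11.92 log2 with LPS against 12.19 and 12.16 without. No single direction for Mcl1 follows from these sets.

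Of the 4 Bcl2l1 sets, 2 fell with LPS in p50-/-IL10-/- cells and none was called in IL10-/- cells. The further one that fell (1420887_a_at) read 7.46 and 7.45 log2 with LPS, against 8.13 and 8.09 without, in p50-/-IL10-/- cells (-0.65 ± 0.14, adjusted p 0.00426). For IL10-/- cells the levels were 8.18 and 7.74 with LPS, against 7.79 and 7.61 without, with overlap (0.26 ± 0.14, adjusted p 0.223). Its genotype difference of the LPS response, -0.91 ± 0.19, was as large as that of the main set but was not called (adjusted p 0.0652). Part of that difference lay in its unstimulated level, which was higher in p50-/-IL10-/- cells without a call. Unstimulated 1426191_a_at was also higher there, at 6.82 and 6.69 against 6.40 and 6.25 in IL10-/- cells, without a call. The remaining sets differed by -0.45 ± 0.17 (1426191_a_at, adjusted p 0.0757) and -0.02 ± 0.09 (1426050_at, which was dim) with LPS in p50-/-IL10-/- cells.

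**Figure D4:**
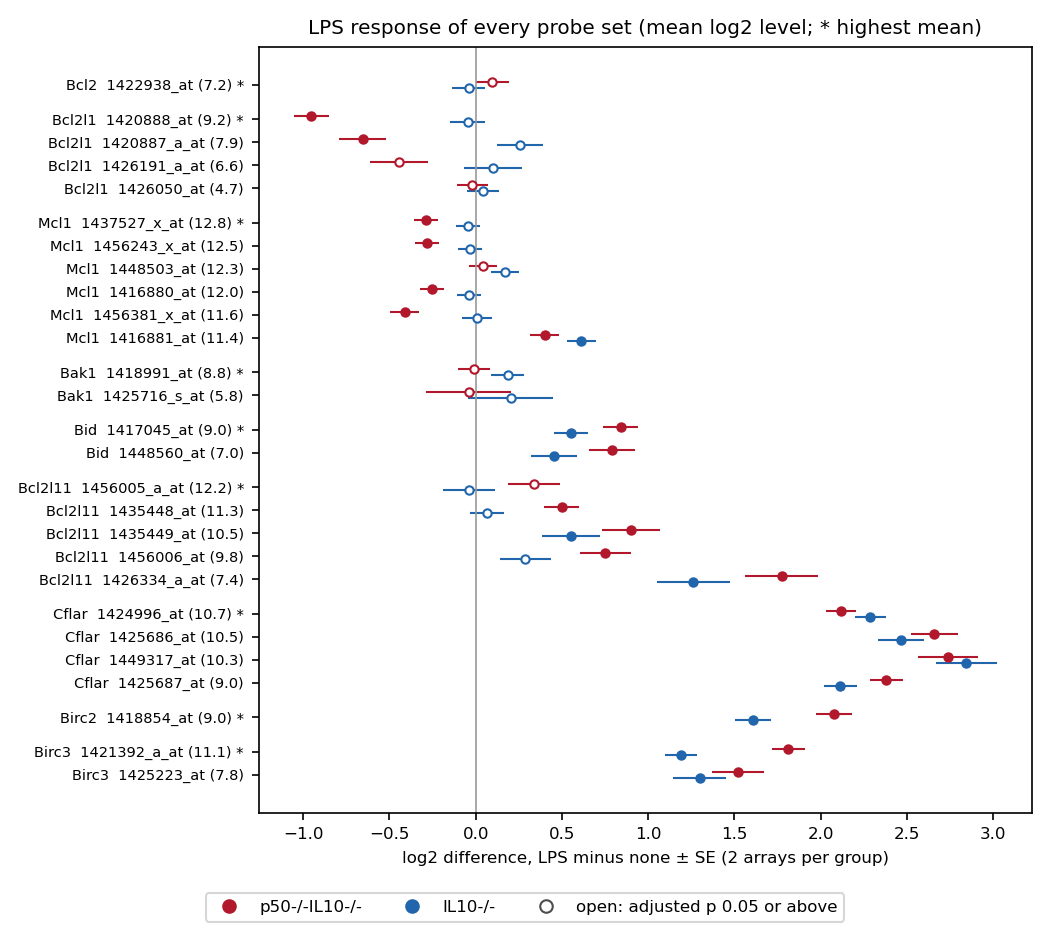
LPS response (log2 difference ± SE, LPS minus none) of all 27 probe sets of the 9 genes, p50-/-IL10-/- cells in red above IL10-/- cells in blue, with the mean log2 level in parentheses and an asterisk at the main set; open circles have an adjusted p of 0.05 or above. All 4 Cflar sets lie above 2 log2 in both genotypes, the Bcl2l11 sets run between -0.04 and 1.77, and of the 6 Mcl1 sets 1 was called higher and 4 lower in p50-/-IL10-/- cells.

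Other genes of the apoptosis pathway were taken from 6 lists with 55 entries, of which 40 were measured. LPS raised 12 and lowered 8 of the 40 in p50-/-IL10-/- cells, against 10.3% and 22.1% of all genes, and raised 7 and lowered 7 in IL10-/- cells, against 7.76% and 17.1%. IL-10 raised 1 and lowered 4 in p50-/-IL10-/- cells, against 3.70% and 2.87% of all genes, and raised 2 and lowered 2 in IL10-/- cells, against 3.35% and 2.82%. With both against none, 9 were higher and 10 lower in p50-/-IL10-/- cells, against 16.7% and 21.2%, and 8 higher and 6 lower in IL10-/- cells, against 6.94% and 12.5%. By genotype, 1 was called without stimulus (lower), against 2.57% of all genes, and 9 with LPS (7 higher), against 12.4%. With both 13 were called (5 higher), against 18.0%, and 16 in the average (8 higher), against 25.7%. The LPS response differed between genotypes for 1 gene, against 1.19% of all genes, and the IL-10 effect for 0 by limma, against 0.137%. At an unadjusted limma p under 0.05 the IL-10 effect differed for 6 of 40, against 1452 of 12393 genes.

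Among 9 measured genes of death receptors and their complexes (13 listed), LPS raised 5 and lowered 1 in p50-/-IL10-/- cells and raised 4 in IL10-/- cells. Of all genes, LPS raised 10.3% and lowered 22.1% in p50-/-IL10-/- cells, and raised 7.76% and lowered 17.1% in IL10-/- cells. The death receptor Fas read 9.73 and 9.51 log2 with LPS, against 7.20 and 7.03 without, in p50-/-IL10-/- cells (2.51 ± 0.11, adjusted p 1.8e-07). IL10-/- cells gave 8.89 and 9.16 with LPS, against 6.74 and 6.81 without (2.25 ± 0.11, adjusted p 5.82e-07). Fas was higher in p50-/-IL10-/- cells with LPS by 0.60 ± 0.11 (adjusted p 0.00742), a call that ended without array 1 of that LPS group (0.0725) and with only the groups compared (0.0662). Daxx, a nuclear protein first described as a Fas partner, rose with LPS by 2.68 ± 0.23 in p50-/-IL10-/- and 2.28 ± 0.23 in IL10-/- cells. With IL-10 added Daxx read 12.52 and 12.66 in p50-/-IL10-/- cells, against 10.69 and 9.89 in IL10-/- cells (2.30 ± 0.23, adjusted p 0.000142). With LPS alone the IL10-/- arrays read 12.41 and 11.93, so that IL-10 changed Daxx by -1.88 ± 0.23 in those cells (adjusted p 0.000738). The p50-/-IL10-/- arrays read 12.84 and 12.70 with LPS alone, and Daxx was not called for IL-10 there. Nor was Daxx called in the direct test of whether the IL-10 effect differed between genotypes.

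Among 10 measured caspases and apoptosome genes (12 listed), LPS raised 3 and lowered 4 in p50-/-IL10-/- cells and raised 2 and lowered 5 in IL10-/- cells. The shares of all genes were 10.3% raised and 22.1% lowered in p50-/-IL10-/- cells, and 7.76% raised and 17.1% lowered in IL10-/- cells. Apaf1, the scaffold that activates caspase-9, read 10.64 and 10.40 log2 with LPS, against 9.02 and 9.02 without, in p50-/-IL10-/- cells (1.5 ± 0.10, adjusted p 1.72e-06). The IL10-/- arrays read 9.39 and 9.32 with LPS, against 8.84 and 8.99 without. Its LPS response was larger by 1.06 ± 0.14 in p50-/-IL10-/- cells (adjusted p 0.00877), and its IL-10 difference was -0.86 ± 0.10 in p50-/-IL10-/- and -0.65 ± 0.10 in IL10-/- cells. The IL10-/- difference was not called as the mean of all its probe sets (-0.47, adjusted p 0.121). The initiator Casp9 fell with LPS (-1.27 ± 0.13 in p50-/-IL10-/- cells and -1.0 ± 0.13 in IL10-/- cells), and Casp2 fell in IL10-/- cells (-1.03 ± 0.14). As the mean of all probe sets the Casp9 differences were smaller (-0.64, adjusted p 0.000551, in p50-/-IL10-/- cells and -0.41, adjusted p 0.0100, in IL10-/- cells).

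For the lists that follow, LPS called 32.4% of all genes in p50-/-IL10-/- cells and 24.8% in IL10-/- cells. Of 8 measured inhibitors of apoptosis and their antagonists (11 listed), LPS raised 2 and lowered 2 in p50-/-IL10-/- cells and raised 1 and lowered 1 in IL10-/- cells. The IL10-/- count is near the share of all genes. The large ubiquitin ligase Birc6 rose by 0.46 ± 0.08 in p50-/-IL10-/- and 0.47 ± 0.08 in IL10-/- cells. The IL10-/- call of Birc6 ended as the mean of its probe sets (0.37, adjusted p 0.0826). The mitochondrial protease Htra2, which counters these inhibitors, fell, with differences of -0.87 ± 0.10 in p50-/-IL10-/- and -0.65 ± 0.10 in IL10-/- cells. Of 7 measured BH3-only and related genes (8 listed), 1 fell with LPS in each genotype, and it was not the same gene. Bnip3 fell in p50-/-IL10-/- cells (-0.51, adjusted p 0.00709), and by -0.41 without array 2 of the unstimulated ones. Pmaip1 fell in IL10-/- cells (-0.66, adjusted p 0.00306), to 5.88 and 6.01 log2, near the dim range. Bnip3, a mitochondrial protein induced by hypoxia, read 8.69 and 8.63 log2 in p50-/-IL10-/- cells given both, against 10.10 and 10.11 in IL10-/- cells given both (-1.44 ± 0.12, adjusted p 5.16e-05). Those IL10-/- arrays lay above the 8.88 and 9.22 read with LPS alone (1.05 ± 0.12, adjusted p 0.000516). In p50-/-IL10-/- cells LPS alone gave 8.54 and 8.50, and Bnip3 was not called for IL-10 there. The direct test of whether the IL-10 effect differed between genotypes did not call it either. Pmaip1 (Noxa) read 5.59 and 5.59 in unstimulated p50-/-IL10-/- cells, in the dim range, against 6.82 and 6.39 in IL10-/- cells (-1.01 ± 0.13, adjusted p 0.00219), so its size is uncertain. The remaining lists held 2 measured protectors (of 6) and 4 Bax-like or atypical genes (of 5), with 1 called for LPS in p50-/-IL10-/- cells in each: Bcl2l2 (0.33 ± 0.10, adjusted p 0.0203) and Bcl2l13 (0.33 ± 0.08, adjusted p 0.0098). The Bcl2l2 call ended without array 1 of the p50-/-IL10-/- LPS group (adjusted p 0.128), without array 2 of unstimulated ones (0.134) and as the mean of its probe sets (0.02, adjusted p 0.867). The Bcl2l13 call ended without array 1 of the p50-/-IL10-/- LPS group (0.23, adjusted p 0.0963) and without array 1 of unstimulated ones (adjusted p 0.0517).

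The genes whose levels most resembled those of the 3 widest-ranging members were found by Pearson's r over the 12 arrays, among 1554 genes whose group means span at least 1 log2. These r values describe 12 arrays that share 3 stimuli and 2 genotypes, and are not tests. For Cflar they were Gdap10 (0.996), the cytokine gene Tnf (0.995) and the adhesion molecule Icam1 (0.992). For Birc2 they were the chemokine receptor-like gene Ccrl2 (0.992), the chromatin factor Aebp2 (0.990) and the transcription factor Irf1 (0.989). For Birc3 they were the receptor Tlr2 (0.985), the proteoglycan Sdc4 (0.984) and the cytokine gene Il1b (0.982). Between members, Cflar and Birc2 had an r of 0.96 and Bid an r of 0.94 with Cflar, whereas Bcl2l1 had an r of -0.74 with Birc2.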

How the data were processed

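RNA of the 12 cultures was hybridised to Affymetrix arrays, 1 array per sample. The authors deposited log2 expression values made by robust multi-array averaging (RMA), which subtracts background, quantile-normalises the arrays and summarises probes into probe sets; RMA and limma are named in the submitters' processing notes, without versions. From these values, 64 control probe sets of 22690 were left out. Genes were named from the platform annotation: 20380 probe sets had 1 gene symbol, 691 several and 1555 none, and each of 12393 genes was read from its brightest probe set. limma 3.58.1 in R 4.3.3 fitted 1 mean per group to all 12 arrays (6 residual degrees of freedom) and tested 12 contrasts, two-sided, with Benjamini-Hochberg adjustment over all genes. The script was tested on simulated data. The number of arrays limits the precision; the median SE of a difference between groups was 0.0998 log2. Replicate numbers were not used in the fit.

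The members, pathway lists and marker lists were chosen with earlier results of these data known. Pathway genes were named as at most the 2 called genes with the largest difference per list and contrast. Alternatives were median-centred arrays, only the groups compared, no dim genes, the mean of all probe sets, no probe sets of suffix x or s, another variance prior, a replicate block and each array left out. Nfkb1 and Bax were not analysed here.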

Additional observations from a re-analysis of the deposited data

Results flagged for a closer look

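The LPS response of Bcl2l1 differed between genotypes by -0.91 log2 (p50-/-IL10-/- minus IL10-/-), as tested by the interaction term in limma. The Bcl2l1 call was lost in 4 of the 12 leave-one-out fits, and 1 of the 4 Bcl2l1 probe sets was called (-0.91 to -0.06). Among the other apoptosis genes the LPS response of Apaf1 differed by 1.06 log2 in the same test, and this call held in all alternatives run.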

How the results depend on the processing

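The LPS calls of Cflar, Birc2, Birc3 and Bid in both genotypes, and of Bcl2l1 in p50-/-IL10-/- cells, held under every alternative run. Counts of called members moved by more than 1.5 times as follows, and the cause was not tested except where fewer arrays were fitted. With centred arrays, 5 members were called for genotype with LPS and 2 for the genotype difference of the LPS response. With only the groups compared, which fits fewer arrays, 1 was called for IL-10 in p50-/-IL10-/- cells, 1 for genotype without stimulus and 1 for genotype with LPS. With the mean of all probe sets, 1 was called for genotype without stimulus and 4 with LPS. With the trended, robust variance prior, 2 were called for the LPS response difference. With each array left out in turn, the count ran from 0 to 3 for IL-10 in p50-/-IL10-/- cells, from 1 to 3 for genotype without stimulus, from 1 to 3 for genotype with LPS and from 0 to 2 for the LPS response difference. The LPS difference of Bcl2l11 in IL10-/- cells turned to 0.43 with the mean of all probe sets (adjusted p 0.0209), and that of Mcl1 in p50-/-IL10-/- cells to 0.0402 without probe sets of suffix x or s (adjusted p 0.772).

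The labels do not say what a replicate number marks. Deviations of same-numbered arrays correlated at 0.169 to 0.595 in the 10 pairs of groups that leave aside the doubly treated p50-/-IL10-/- cells (0.398 to 0.595 in the 3 IL10-/- pairs), and at -0.492 to -0.173 in the 5 pairs that include them. With the replicate block 6 members were called for LPS in p50-/-IL10-/- cells, as without it, and no member call changed.

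Over all genes, fitting only the groups compared or leaving out 1 array gave as few as 1914 calls for LPS in IL10-/- cells (3078 as reported), 270 for IL-10 in p50-/-IL10-/- cells (814) and 283 in IL10-/- cells (765). For LPS with IL-10 against none the lowest counts were 2909 in p50-/-IL10-/- cells (4703) and 1469 in IL10-/- cells (2411). For genotype they were 101 without stimulus (318), 581 with LPS (1535) and 987 with both (2231). The genotype difference of the LPS response ranged from 32 to 255 calls (147), and that of the IL-10 effect from 4 to 74 (17), the highest with the replicate block within genotypes. Of the 40 pathway genes, as few as 13 were called for LPS in p50-/-IL10-/- cells (20), 1 for IL-10 in those cells (5), 1 for genotype with LPS (9) and 5 with both (13), and up to 8 for IL-10 in IL10-/- cells (4). For the IL-10 effect difference up to 2 of them were called (0), for the LPS response difference up to 2 (1), and for genotype without stimulus from 0 to 2 (1).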
